A study of Mus musculus with 16 samples.

Results

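Infarcted mouse hearts that overexpressed the receptor tyrosine kinase ERBB2 (infarcted OE) were set against sham-operated wild-type hearts (WT sham), a comparison in which both factors of the study differ at once. It holds 8 of the 16 libraries, 4 animals in each group, and 14298 of the 24421 genes in the table reached 10 normalized counts in 4 or more of the 16 libraries and were tested. The other groups, each of 4 animals, were OE sham hearts and infarcted WT hearts, and their differences from WT sham hearts are the single effects of ERBB2 and of the infarct. Hearts came from adults of about 3 months and were taken 2 weeks after a permanent tie of the left anterior descending coronary artery or after sham surgery, per the labels. The labels gave no sex, strain, promoter, cell type, induction scheme or species for the overexpressed ERBB2, so the cells that carry it and how long it was on before surgery are not known here. The RNA came from whole tissue by polyA selection, and the part of the heart that was sampled was not given.

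ERBB2 is the ligandless partner of the neuregulin receptors, and in cardiomyocytes its signal runs through the RAS, RAF and ERK kinases and through AKT. An active receptor is known to make mouse cardiomyocytes dedifferentiate and re-enter the cell cycle. A permanent coronary tie kills the muscle downstream, and within 2 weeks in the mouse the dead tissue is replaced by a collagen scar made by activated fibroblasts.

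The targeted gene was measured first. Erbb2 (chr11:98412484-98437716, GRCm38) had 793, 1105, 1808 and 2504 normalized counts in infarcted OE hearts 1 to 4, against 259.6, 248, 245 and 259 in WT sham hearts. The values are read counts over a gene divided by 1 size factor per library. All 4 infarcted OE hearts stood above all WT sham hearts, and they differed among themselves by more than 3-fold (1553 ± 763 against 253 ± 7.57, mean ± SD, n = 4 each). An exact 2-sided permutation test gave p = 0.0286, the smallest that 4 against 4 allows, and 0.0571 without any 1 of the WT sham hearts. OE sham hearts had 1763 ± 722 and infarcted WT hearts 252 ± 47.4 normalized counts (SD, n = 4 each).

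The number of reads counted over genes and the tissue content differed between the libraries. Per the design text all libraries were sub-sampled to an equal number of reads, so these totals do not measure sequencing depth. Reads counted over genes ran from 14998464 to 17468914 in infarcted OE hearts and from 11939093 to 14886191 in WT sham hearts, with no overlap, and the 100 most abundant genes held 25 to 26.3% and 29.1 to 30.6% of them. Cardiomyocyte markers were abundant in every library. Markers of other tissues stood out in some hearts. The thymocyte gene Rag1 had 256, 0, 422 and 162 normalized counts in infarcted OE hearts 1 to 4 and at most 5.48 in any other heart. The lung gene Sftpc had 4.63, 2744, 1097 and 0 in infarcted OE hearts and 3.62, 5038, 1187 and 4018 in infarcted WT hearts, against at most 3.45 in any sham heart. The skeletal muscle gene Myh1 was highest in WT sham heart 1, at 1032, and stood at 468 in infarcted OE heart 1. For each gene list the calls are therefore also counted in 3 further fits: with summed lung and thymocyte markers as terms of the model (marker terms), without the 3 Rag1 libraries, and without the 5 Sftpc libraries. The fit without Rag1 libraries leaves 1 infarcted OE heart, whose spread is assumed to be that of the other groups. The last 2 fits were chosen after seeing the data.

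**Figure D1:**
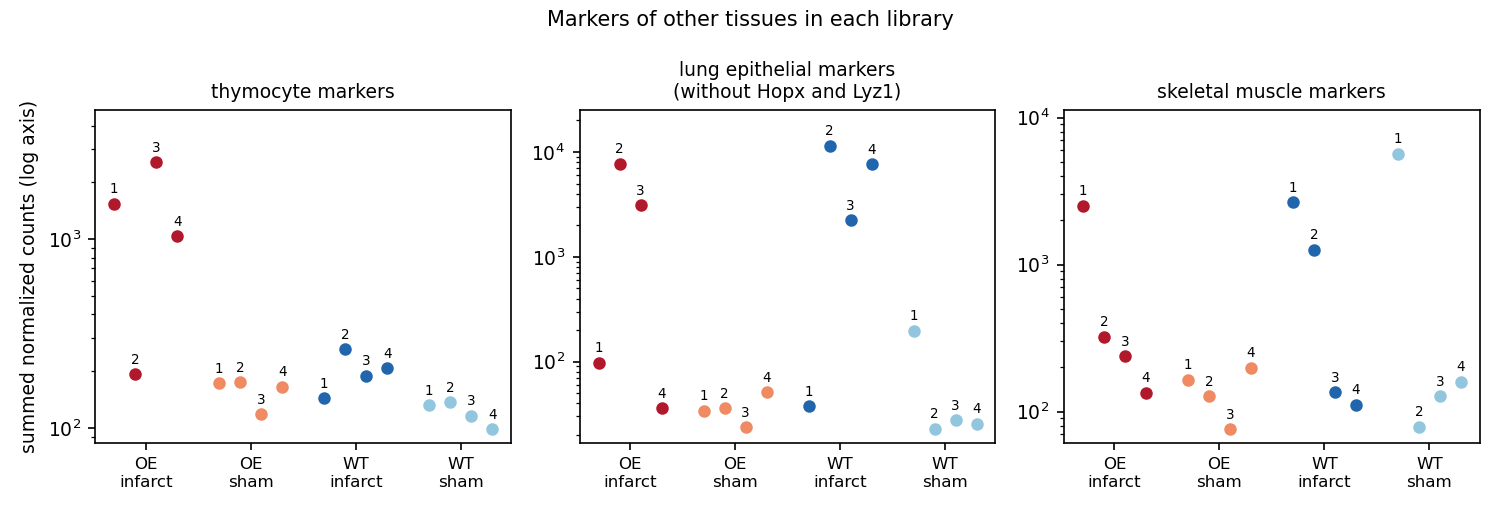
Summed normalized counts (log axis) of thymocyte, lung epithelial and skeletal muscle markers in each library, numbered by replicate, with the 4 groups along the x axis. Infarcted OE hearts 1, 3 and 4 hold thymocyte sums of 1040.4 to 2566, and lung markers stand high in 2 infarcted OE and 3 infarcted WT hearts.

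Infarcted OE hearts differed from WT sham hearts in 7193 of 14298 genes, which is 50.3% of those tested: 3586 were higher (25.1%) and 3607 were lower (25.2%). Of these, 1213 were at least 2-fold higher and 795 at least 2-fold lower. Genes passed at a Benjamini-Hochberg adjusted p below 0.05 in limma on log2(value + 1), and every count and adjusted p below is of that test unless another is named. The ERBB2 effect in sham hearts passed in 7051 genes (49.3%) and the infarct effect in WT hearts in 1008 (7.05%). With libraries scaled by their totals instead of the deposited size factors, 5770 genes were higher and 2218 lower in infarcted OE hearts, and the median of all genes moved to 0.21. The 4 infarcted OE and the 4 WT sham values did not overlap in 6430 genes, or 45% of those tested. The median log2 fold change over all tested genes was 0.01 as deposited. Gene lists were drawn up for this tissue and are described by how many tested members passed in each direction. Some genes belong to several lists, so counts of related lists are not independent. As a baseline for the further fits, 663 of all tested genes rose and 852 fell with marker terms. Without Sftpc libraries 3145 rose and 3215 fell. The fit without Rag1 libraries, which leaves 1 infarcted OE heart, called fewer genes in each direction than the main fit. Its baseline is given in the closing section on processing, and its list counts below are to be read beside it. High thymocyte sums were confined to infarcted OE hearts, so the marker terms cannot be fully separated from that group. The lung sum among these terms includes Hopx and Lyz1 and also differed with genotype. It was 759 to 1140 in OE sham and 3315 to 4721 in WT sham hearts. Without Hopx and Lyz1 it was 23.8 to 51 and 23 to 198 in these groups. Losses with marker terms are therefore not a correction for lung RNA alone. A call lost in these fits need not mean a smaller change.

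**Figure D2:**
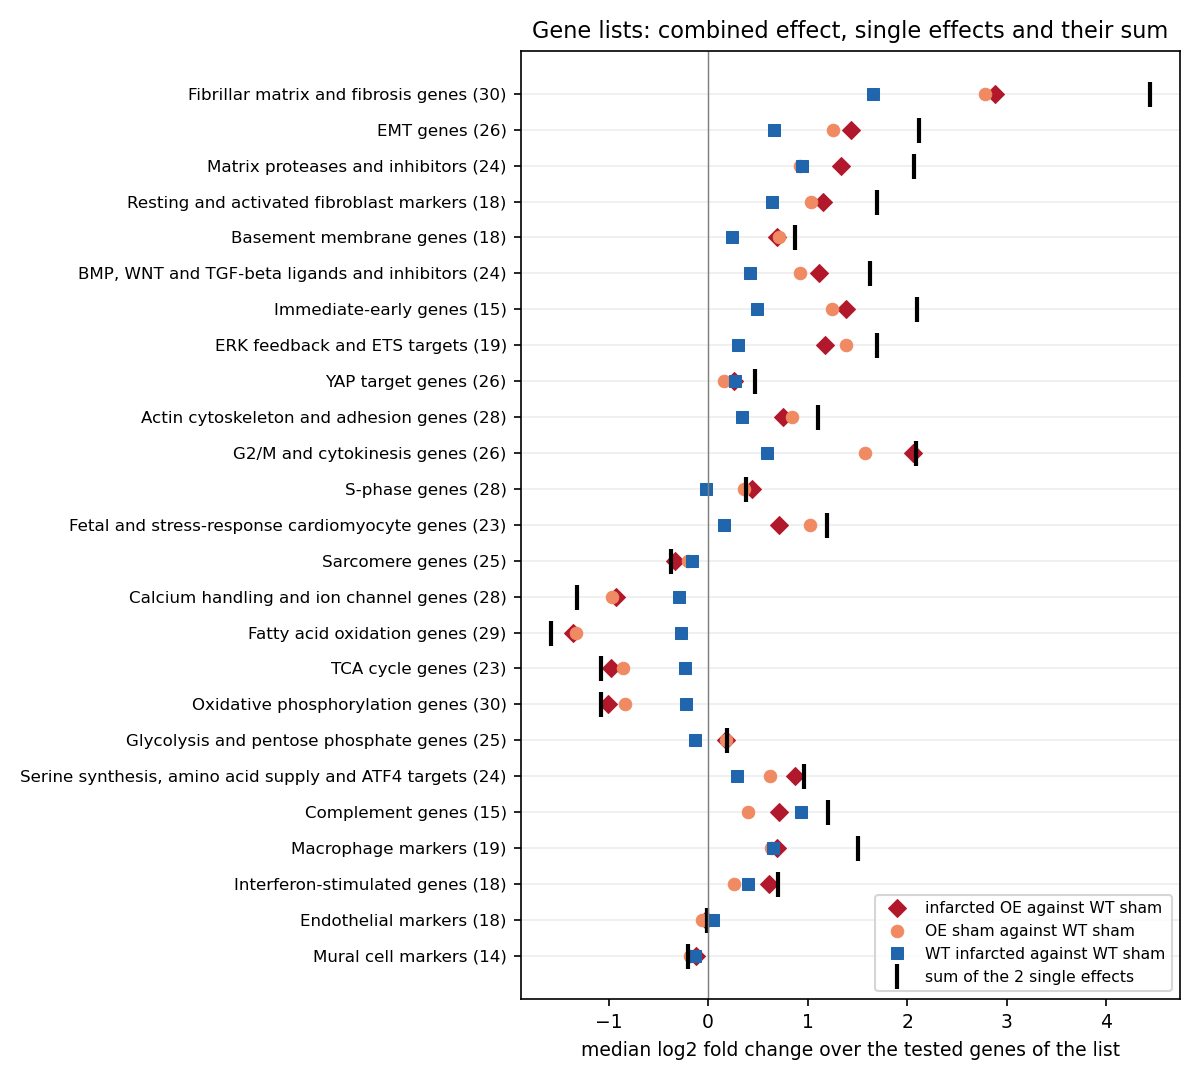
Median log2 fold change over the tested genes of 25 lists (number in brackets), for infarcted OE hearts (red diamonds), OE sham hearts (orange circles) and infarcted WT hearts (blue squares), each against WT sham hearts, with the sum of the 2 single effects as a black tick. The red diamond lies well left of the tick for fibrillar matrix (2.88 against 4.43) and on it for G2/M genes (2.06 against 2.09) in this fit, which has no marker terms.

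ERBB ligands and receptors moved both ways. Of 13 tested, 7 rose and 4 fell. Hbegf, a ligand of EGFR and ERBB4, had 1269, 960.3, 2909 and 2298 normalized counts in infarcted OE hearts, against 377, 346, 416 and 353 in WT sham hearts (log2 fold change 2.18, SE 0.29, adjusted p 1.59e-05). The groups did not overlap. Ereg, the ligand epiregulin, rose by 3.79 and the receptor gene Egfr by 1.70 on the log2 scale, while Egf, the ligand that gave the family its name, fell to 67.4 ± 31.7 in infarcted OE hearts, against 239.7 ± 69.7 in WT sham hearts (adjusted p 4.19e-04). Upward calls in the list numbered 2, 4 and 6, and downward calls 0, 1 and 4, with marker terms, without Rag1 libraries and without Sftpc libraries, in this order.

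Targets and feedback inhibitors of ERK were mostly higher. Of 19 tested, 15 rose and none fell, with a median of 1.17. Etv5, an ETS transcription factor induced by ERK, had 744, 851, 617 and 671 normalized counts in infarcted OE hearts, against 223, 166, 289.6 and 302 in WT sham hearts (log2 fold change 1.58, adjusted p 3.16e-06). Spred1, an inhibitor of RAS signalling, rose by 1.06, and Dusp2, a phosphatase of ERK, by 2.64. Immediate-early genes, which growth factors switch on within minutes, rose in 13 of 15 (median 1.38). Egr1 had 1118, 1348, 4352 and 6746 in infarcted OE hearts, against 240.2, 439, 252 and 204 in WT sham hearts. Infarcted OE hearts 3 and 4 were several times higher than hearts 1 and 2, and all 4 stood above every WT sham heart (log2 fold change 3.24, adjusted p 6.00e-05). Upward calls numbered 5, 9 and 15 for ERK targets and 2, 3 and 14 for immediate-early genes with marker terms, without Rag1 libraries and without Sftpc libraries, in this order.

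Matrix genes showed the most complete shift upward. All 30 fibrillar matrix and fibrosis genes rose, with a median log2 fold change of 2.88. Col1a1, a chain of type I collagen, had 23337, 22274, 20346 and 15503 normalized counts in infarcted OE hearts, against 2374, 2045, 3307 and 2472 in WT sham hearts (log2 fold change 3.00, SE 0.27, adjusted p 4.25e-07). The lowest infarcted OE heart was several times above the highest WT sham heart. Cilp, a matrix protein of cartilage and of heart scar, averaged 7188 ± 1911 in infarcted OE hearts and 255 ± 96.3 in WT sham hearts (SD, n = 4 each), a rise of 4.86. Tnc, which encodes the wound glycoprotein tenascin-C, rose by 4.84 and the collagen chain gene Col11a1 by 4.90. Of the 30, 25, 30 and 29 rose with marker terms, without Rag1 libraries and without Sftpc libraries, in this order.

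The enzymes and cells of the matrix followed. Of 24 matrix proteases and inhibitors, 17 rose and 2 fell (median 1.34). Mmp14, the membrane-bound protease that activates MMP2, had 1749, 2526, 2672 and 2373 normalized counts in infarcted OE hearts, against 288, 254, 372 and 339 in WT sham hearts (log2 fold change 2.89, adjusted p 1.37e-07). Mmp15, another membrane-type protease, fell by 0.82 on the log2 scale. Fibroblast markers rose in 13 of 18, among them Col6a1, a type VI collagen chain, by 2.27. Basement membrane genes rose in 13 of 18, with a smaller median of 0.69. Nid1, the linker protein nidogen, rose by 1.03, and Frem1, which anchors epithelial basement membranes, by 5.22. Upward calls numbered 8, 11 and 16 for proteases and inhibitors, 10, 12 and 13 for fibroblast markers and 9, 11 and 12 for basement membrane genes with marker terms, without Rag1 libraries and without Sftpc libraries, in this order.

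Genes of mitosis were higher. Of 26 tested G2/M and cytokinesis genes 25 rose, with a median of 2.06, and Cenpf fell. Plk1, a kinase of mitotic entry, had 67.2, 78.7, 128 and 101 normalized counts in infarcted OE hearts, against 25.8, 10.2, 18.4 and 10.7 in WT sham hearts (log2 fold change 2.51, SE 0.28, adjusted p 3.39e-06). Ccna2, cyclin A2, averaged 177 ± 58.5 and 28.9 ± 8.14 in these groups (SD, n = 4 each). Anln, a scaffold of the cytokinetic ring, rose by 1.92 and the spindle checkpoint gene Bub1b by 2.61. Cenpf, a large protein of the kinetochore and nuclear matrix, had 117, 203, 193 and 126 in infarcted OE hearts, against 585, 499, 309 and 371 in WT sham hearts (log2 fold change -1.46). Genes of DNA replication moved less: 15 of 28 rose (median 0.44), among them Tyms, thymidylate synthase, by 1.28, while Rfc4, a clamp loader subunit, fell by 0.45 (adjusted p 0.0424, up to 0.121 without single libraries and 0.0578 by DESeq2).

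Dividing thymocytes express these genes too, and that tissue's markers were high in 3 of the 4 infarcted OE hearts. In infarcted OE heart 2, which had no Rag1 but 2744 of the lung gene Sftpc, Plk1 stood at 78.7 and Ccna2 at 143. Both were above the highest WT sham value. Upward calls numbered 7, 21 and 25 for G2/M genes and 0, 1 and 11 for S-phase genes with marker terms, without Rag1 libraries and without Sftpc libraries, in this order. OE sham hearts, in which Rag1 and Sftpc were at or near 0, showed 25 of the 26 G2/M genes higher than WT sham hearts. How much of the rise in infarcted OE hearts came from thymocyte RNA was not tested.

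Cardiomyocyte genes were lower. Of 12 cardiomyocyte markers 9 fell and none rose (median -0.96), and in whole tissue fewer cardiomyocytes and less RNA per cardiomyocyte cannot be told apart. Tnni3, the adult cardiac troponin I, had 26524, 30164, 25366 and 31140 normalized counts in infarcted OE hearts, against 64282, 72891, 75629 and 71527 in WT sham hearts (log2 fold change -1.33, SE 0.10, adjusted p 1.18e-07). Over the sarcomere list 14 of 25 fell and 4 rose. Myh6, which encodes the fast adult myosin motor, fell by 1.12, while its fetal counterpart Myh7 rose by 1.04 (adjusted p 0.0146). Myh7 in WT sham hearts ranged widely, with 4259 in heart 4 and 12981 or more in the other 3, and without heart 4 its log2 fold change was 0.62 (adjusted p 0.0287). Tnni1, the slow fetal troponin I, rose by 2.87. Downward calls numbered 6, 8 and 9 for cardiomyocyte markers and 4, 11 and 14 for sarcomere genes, and upward sarcomere calls 0, 0 and 2, with marker terms, without Rag1 libraries and without Sftpc libraries, in this order.

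Of 23 fetal and stress-response genes 14 rose and 1 fell (median 0.71), and the rises numbered 1, 4 and 13 with marker terms, without Rag1 libraries and without Sftpc libraries, in this order. Nppa, the atrial natriuretic peptide gene, had 141530, 184460, 235380 and 227370 normalized counts in infarcted OE hearts, against 21072, 15554, 31386 and 44701 in WT sham hearts (log2 fold change 2.89, SE 0.33). Nppb, the related ventricular peptide gene, rose by 2.70, Ankrd1, a mechanical stress gene of the sarcomere, by 1.56, and Runx1, a transcription factor induced in injured myocardium, by 1.80. Myl7, the atrial light chain, fell by 1.15 (adjusted p 0.0301, up to 0.0968 without infarcted OE heart 3 or 4 or WT sham heart 1, 3 or 4). Acta1, the skeletal actin of stressed heart muscle, had 7994, 9633, 11915 and 12943 in infarcted OE hearts and 13662, 5715, 14980 and 21298 in WT sham hearts. These groups overlapped and the gene did not pass (log2 fold change -0.27, adjusted p 0.71).

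Calcium handling and ion channel genes fell in 20 of 28 (median -0.93), and none rose. Atp2a2, whose pump returns calcium to the sarcoplasmic reticulum, had 78333, 111100, 69468 and 94935 normalized counts in infarcted OE hearts, against 288890, 321200, 296160 and 274430 in WT sham hearts (log2 fold change -1.76, SE 0.16, adjusted p 6.04e-07). Its inhibitor Pln, phospholamban, fell by 1.62, the calcium-binding Hrc by 1.74 and the potassium channel gene Kcnj11 by 1.19. Of the 28, 8, 15 and 21 fell with marker terms, without Rag1 libraries and without Sftpc libraries, in this order.

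Genes of mitochondrial energy metabolism were lower. All 30 genes of oxidative phosphorylation fell (median -1.01), as did all 23 of the TCA cycle (median -0.97) and 26 of 29 of fatty acid oxidation (median -1.36). Uqcrc1, a core subunit of complex III, had 9622, 9786, 9449.7 and 10177 normalized counts in infarcted OE hearts, against 21178, 23245, 21029 and 21200 in WT sham hearts (log2 fold change -1.15, SE 0.07, adjusted p 3.00e-08). Within each group these values lay close together. Acadvl, the very-long-chain acyl-CoA dehydrogenase, averaged 7184 ± 826 and 19171 ± 2295 in infarcted OE and WT sham hearts (SD, n = 4 each). Cox7a1, the muscle form of a complex IV subunit, fell by 1.70, Etfb, which carries electrons from fat oxidation, by 1.56, and Idh3b, a subunit of isocitrate dehydrogenase, by 1.23. All 30 and all 23 also fell in the 3 further fits, and 24, 25 and 25 of the fatty acid oxidation genes did with marker terms, without Rag1 libraries and without Sftpc libraries, in this order.

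Glycolysis and pentose phosphate genes split, with 8 up and 7 down of 25, close to the 25.1% and 25.2% of all tested genes. Slc2a4, the insulin-responsive glucose transporter, fell by 1.42, and Ldhb, the heart form of lactate dehydrogenase, by 1.17. Genes of serine synthesis, amino acid supply and the transcription factor ATF4 rose in 15 of 24 and fell in 1 (median 0.87). Mthfd2, a mitochondrial folate enzyme, had 201, 123, 334 and 332 normalized counts in infarcted OE hearts, against 50.4, 43.4, 40.2 and 51.3 in WT sham hearts (log2 fold change 2.29, adjusted p 3.74e-06). Pycr1, an enzyme of proline synthesis, rose by 2.10. Protein folding and secretory genes rose in 13 of 23 and fell in 2. The collagen chaperone gene Serpinh1 rose by 1.16 and P4hb, a subunit of collagen prolyl hydroxylase, by 0.75. Upward calls numbered 1, 3 and 8 for glycolysis, 2, 6 and 17 for the ATF4 group and 1, 4 and 18 for the folding group, and downward glycolysis calls 5, 6 and 7, with marker terms, without Rag1 libraries and without Sftpc libraries, in this order.

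Actin cytoskeleton and adhesion genes rose in 24 of 28 and fell in 1 (median 0.76). Anxa2, a membrane-binding annexin, rose by 1.71. Zyx, a focal adhesion protein gene, averaged 2914 ± 381 normalized counts in infarcted OE hearts. In WT sham hearts it averaged 1446 ± 102 (SD, n = 4 each). Genes of the epithelial-to-mesenchymal transition (EMT) rose in 22 of 26 (median 1.44), Vim, the intermediate filament vimentin, by 1.01. Wnt5a, a WNT ligand, fell by 0.68 (adjusted p 0.0209, up to 0.0757 without infarcted OE heart 3 or 4 or WT sham heart 3 or 4). Targets of the transcription coactivator YAP were divided: 13 rose, 3 fell and 10 did not pass, with a median of 0.26. Ctgf, a matricellular YAP target, had 20446, 6534, 14325 and 13320 normalized counts in infarcted OE hearts, against 1924, 1792, 2086 and 1463 in WT sham hearts (log2 fold change 2.81, adjusted p 4.18e-05). Cyr61, its close relative, had 2212, 907, 2232 and 2212 in infarcted OE hearts, against 1011, 1134, 971 and 629.8 in WT sham hearts. Infarcted OE heart 2 lay below 3 WT sham hearts, and the adjusted p of 0.0485 reached 0.135 when single libraries of any group were left out. Its log2 fold change of 0.95 was -0.012 without the 3 libraries with Rag1, which leaves infarcted OE heart 2 alone. Upward calls numbered 4, 13 and 24 for actin and adhesion genes, 15, 18 and 20 for EMT genes and 4, 7 and 13 for YAP targets with marker terms, without Rag1 libraries and without Sftpc libraries, in this order.

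Secreted regulators of BMP, WNT and TGF-beta signalling rose in 15 of 24 and fell in 2. Tgfb3, a TGF-beta ligand, had 1324, 1320.4, 1306 and 1246 normalized counts in infarcted OE hearts, against 438, 403, 529.8 and 523 in WT sham hearts (log2 fold change 1.46, adjusted p 1.75e-07). Frzb, a secreted WNT antagonist, rose by 1.93, and Wif1, another, fell by 1.18. Fstl1, a secreted glycoprotein that binds BMP ligands, rose by 2.12. Of the list, 6, 10 and 14 rose with marker terms, without Rag1 libraries and without Sftpc libraries, in this order.

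Some immune genes were higher. Complement genes rose in 10 of 15 (median 0.71), macrophage markers in 9 of 19 (median 0.70) and interferon-stimulated genes in 9 of 18 (median 0.61). Among macrophage markers 1 fell, Timd4. Its log2 fold change was -1.11 to -0.90 in the fits without single libraries (adjusted p at most 0.0065, limma). C1qb, a chain of the complement recognition protein, averaged 1688 ± 291 normalized counts in infarcted OE hearts and 991 ± 76.6 in WT sham hearts (SD, n = 4 each, adjusted p 2.57e-04). Cd14, the monocyte receptor for endotoxin, had 456, 159, 498 and 522 in infarcted OE hearts, against 124, 135, 125 and 110.1 in WT sham hearts. Ms4a7, a macrophage membrane protein gene, rose by 2.01. Upward calls numbered 0, 3 and 8 for complement genes, 2, 7 and 9 for macrophage markers and 2, 4 and 3 for interferon-stimulated genes with marker terms, without Rag1 libraries and without Sftpc libraries, in this order. Endothelial markers divided, with 3 up and 4 down of 18: Plvap, a protein of endothelial fenestrae, rose by 1.27, and Kdr, the main VEGF receptor, fell by 0.41 (adjusted p 0.00949, and 0.156 with libraries scaled by their totals). Mural markers also divided, 4 up and 4 down of 14, with Cspg4, the pericyte proteoglycan NG2, up by 1.14 and Abcc9, a subunit of the ATP-sensitive potassium channel, down by 1.49. Over all tested genes 25.1% passed as higher and 25.2% as lower, so the endothelial and mural counts do not stand out. For endothelial markers upward calls numbered 0, 0 and 2 and downward calls 1, 1 and 2, and for mural markers 2, 2 and 2 and 2, 3 and 2, with marker terms, without Rag1 libraries and without Sftpc libraries, in this order.

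The largest rises among genes with a mean of at least 100 over the 8 libraries were those of F2rl2, Frem1, Cthrc1, Sprr1a, Col11a1, Cilp, Tnc and Egr2. F2rl2, a thrombin-responsive receptor gene of the PAR family, had 123, 157, 735 and 963 normalized counts in infarcted OE hearts, against 6.46, 0, 0 and 0 in WT sham hearts. It was at 0 in 3 WT sham libraries, so its fitted log2 fold change of 7.70 depends on the pseudocount and was 5.83 at a pseudocount of 5. Cthrc1, a secreted protein of activated fibroblasts, had 354, 301, 172 and 77.5 in infarcted OE hearts, against 6.46, 6.38, 4.6 and 2.14 in WT sham hearts. Sprr1a, an epithelial envelope protein that stressed cardiomyocytes also make, rose by 5.01, with 81.4 in WT sham heart 1 and at most 6.89 in the others. Egr2, an immediate-early transcription factor, rose by 4.64.

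The largest falls were those of Clcn1, Lgi1, Efnb3, Pfkfb1, Lrrc15, Adra1a, Lrtm1 and Fbp2. Clcn1, a voltage-gated chloride channel gene, had 15.4, 42.9, 8.33 and 3.52 normalized counts in infarcted OE hearts, against 294, 278, 167 and 239.5 in WT sham hearts (log2 fold change -4.18). Efnb3, the membrane-bound ligand ephrin-B3, had 217, 277, 49.99 and 169 in infarcted OE hearts, against 2961, 4068, 1084 and 1501 in WT sham hearts. Adra1a, an alpha-1 adrenergic receptor gene, fell by 3.49, and 2 enzymes of fructose bisphosphate metabolism fell as well, with log2 fold changes of -3.66 for Pfkfb1 and -3.04 for Fbp2. For the leucine-rich repeat genes Lgi1, Lrrc15 and Lrtm1 they were -4.00, -3.51 and -3.37.

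**Figure D3:**
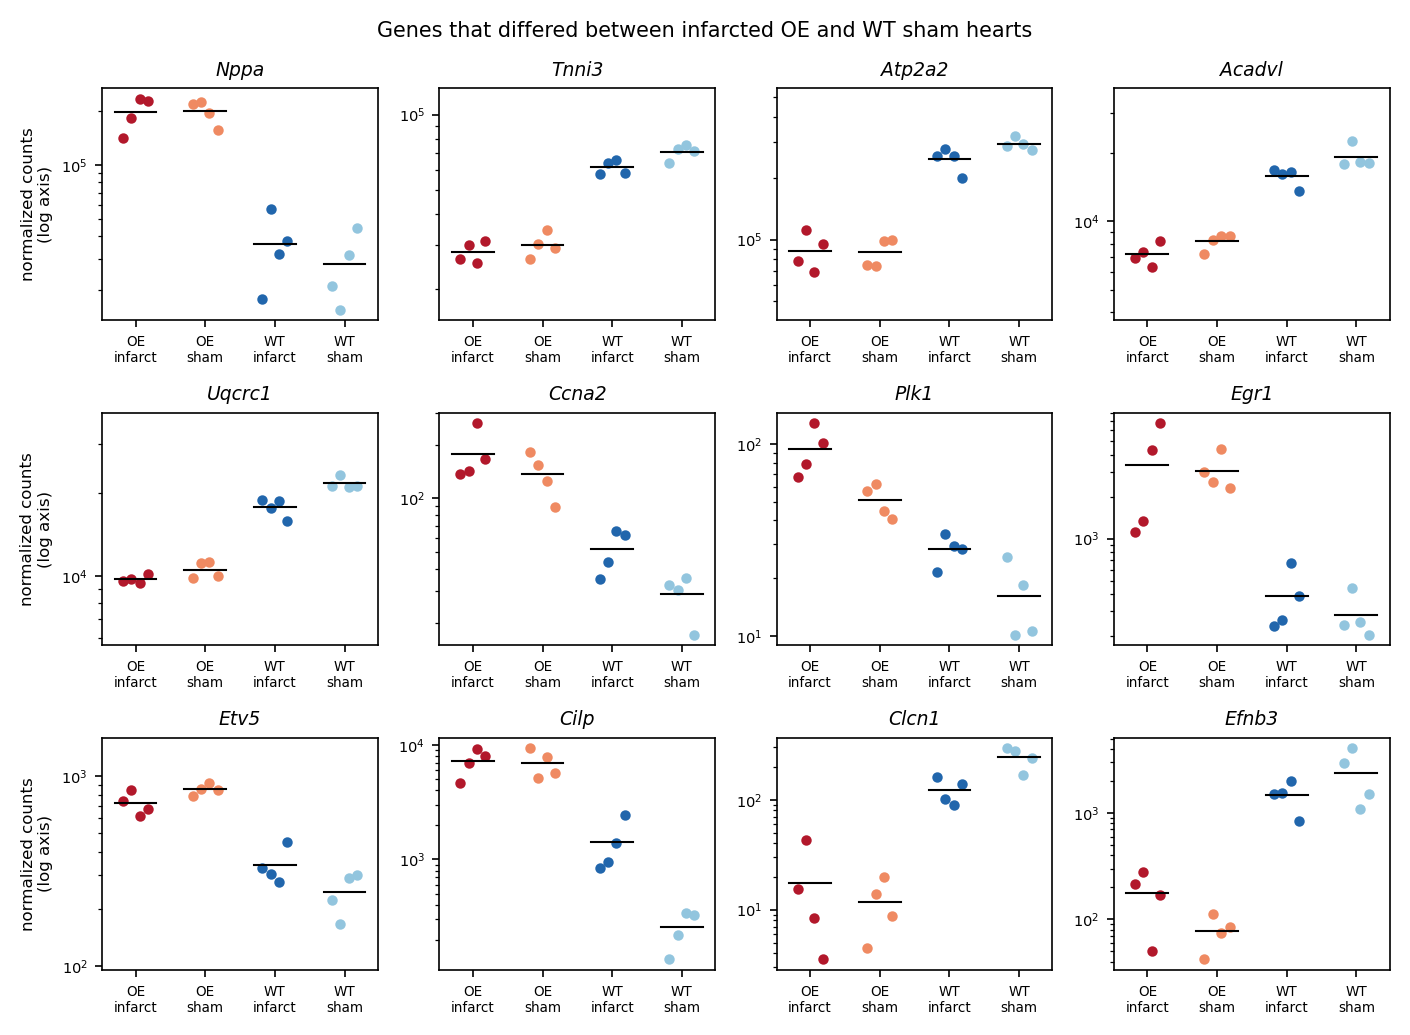
Normalized counts (log axis) of 12 genes in each library, with group means as bars and the groups infarcted OE, OE sham, infarcted WT and WT sham from left to right. In most panels both OE groups lie together, as for Uqcrc1 (means 9759, 10563, 17749 and 21663).

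The combined effect was next compared with the sum of the single effects on the log2 scale, which asks whether 2 fold changes multiply. The departure is the combined effect minus that sum, and it equals the infarct effect in OE hearts minus the infarct effect in WT hearts. WT sham libraries are the baseline of both single effects and of the combined effect, so by construction an error in their mean also enters the departure. Over all tested genes the combined effects spread less than the sums, with an SD over genes of 0.81 against 1.10, and the sum also carries the measurement error of more libraries. The departure passed in 12 genes, or 0.0839% of those tested, 11 below the sum (0.0769%) and 1 above it. At an unadjusted p below 0.05 there were 1416, with 878 negative and 538 positive. The median 95% interval of the departure reached 0.39 to either side, and for 10523 genes (73.6%) it lay within 2-fold. Many of these had little effect to add. Among the 3547 genes whose sum was at least 2-fold in either direction, the interval lay within 2-fold in 1285 and excluded 0 in 923.

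**Figure D4:**
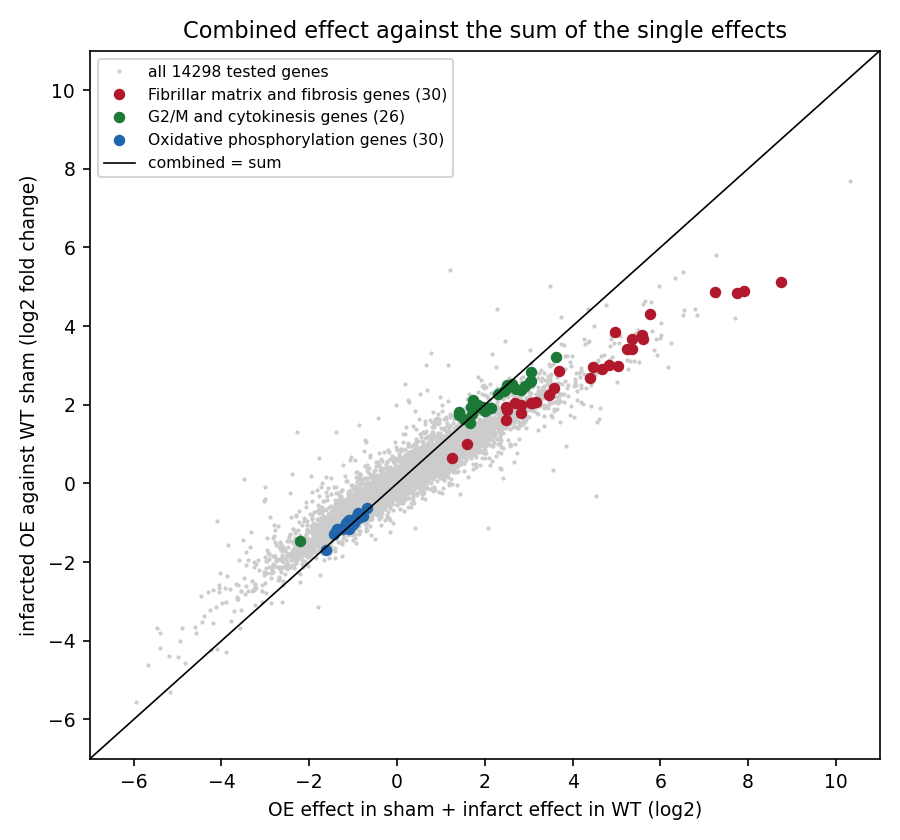
Each point is a tested gene, with the log2 sum of the single effects on the x axis and the log2 fold change of infarcted OE against WT sham hearts on the y axis. Fibrillar matrix genes (red) lie below the line of equality, while G2/M genes (green) and oxidative phosphorylation genes (blue) lie along it in this fit, which has no marker terms.

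Of the 12 genes, Postn, Col3a1, Col5a2 and Sparc are in the fibrillar matrix list and Ctsk, Mmp2 and Adamts12 in the list of proteases and inhibitors, which hold 30 and 24 of the 14298 tested genes. The 30 fibrillar matrix genes had a median of 2.88 in infarcted OE hearts, 2.78 in OE sham hearts and 1.65 in infarcted WT hearts, each against WT sham hearts. Their sum was 4.43 at the median, and the median departure was -1.34, against 0.01 over all tested genes. All 30 departures were negative and the 95% interval excluded 0 in 25, while 4 passed the adjusted test. Genes chosen because both single effects passed, most fibrillar genes among them, also fell short of their sums. Of 791 genes that passed in the same direction with each single factor, 790 had a departure opposite in sign to their sum. The 543 of these that rose had a median departure of -0.61, with the interval below 0 in 413. Selection on both single effects inflates their sums, and the departure subtracts those sums, so this direction was favoured in advance. These genes therefore cannot show whether a shortfall is particular to matrix genes. The fibrillar median was -1.50 with marker terms, -1.45 without Rag1 libraries and -1.06 without Sftpc libraries. EMT genes had a median departure of -0.57 and proteases and inhibitors one of -0.77, and without Sftpc libraries these were -0.33 and -0.29. Mmp2 and Mmp14 are in both of these lists, and Postn is in the fibrillar and the fibroblast list. Fibroblast markers stood at -0.57 and macrophage markers at -0.64. For G2/M genes the median departure was -0.10 and no interval excluded 0, but it was -0.75 with marker terms, -0.34 without Rag1 libraries and 0.18 without Sftpc libraries. For oxidative phosphorylation it was 0.06, also with no interval excluding 0, and for the TCA cycle 0.11. Genes of calcium handling stood at 0.27 (0.60 without Rag1 libraries), with 5 of 28 intervals above 0.

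Postn, the matricellular protein periostin that marks activated fibroblasts (chr3:54359267-54391041, GRCm38), shows the pattern. It had 16126, 21012, 20531 and 15069 normalized counts in infarcted OE hearts and 18389, 19600, 16811 and 11998 in OE sham hearts. It had 5563, 3366, 5434 and 6648 in infarcted WT hearts and 1573, 1299.5, 1217 and 1233 in WT sham hearts. Both OE groups overlapped each other and stood above every WT heart. ERBB2 alone raised it by 3.63, the infarct alone by 1.95 and both together by 3.76 on the log2 scale (departure -1.81, 95% interval -2.39 to -1.24, adjusted p 0.022). The product of the single fold changes is 47.8-fold, and the combined change was 13.6-fold.

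Col3a1, Col5a2, Sparc, Ctsk, Mmp2, Adamts12, Fbln7 and Pamr1 also passed with a negative departure. Ctsk, the collagen-cleaving protease cathepsin K, had the smallest adjusted p. It had 722, 626, 778 and 661 normalized counts in infarcted OE hearts and 798, 673, 824 and 735 in OE sham hearts, against 319, 255, 428 and 395 in infarcted WT and 124, 126, 111 and 129 in WT sham hearts (departure -1.60, 95% interval -1.99 to -1.20, adjusted p 0.0041). The infarct raised Ctsk by 1.48 in WT hearts, and in OE hearts its change was -0.12 (adjusted p 0.779). Col3a1, the chain of type III collagen, averaged 43361 ± 11698 in infarcted OE hearts, 37904 ± 4768 in OE sham hearts, 25532 ± 8439.5 in infarcted WT hearts and 5354 ± 962 in WT sham hearts (departure -2.05, 95% interval -2.73 to -1.36, adjusted p 0.023). Departures were -2.31 for Fbln7, which encodes the matrix protein fibulin-7, -1.75 for Pamr1, a secreted protein gene named for muscle regeneration, and -1.51 for Col5a2, a chain of type V collagen. They were -1.43 for the protease gene Adamts12, -1.26 for the gelatinase gene Mmp2 and -1.09 for Sparc, a collagen-binding glycoprotein gene.

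The departure depends on the scale on which effects are added. If the single effects add in counts rather than in fold changes, the mean expected for Postn in infarcted OE hearts is 20622, against 65928 if fold changes multiply, and the measured mean was 18184. For Col5a2 the measured 6346 stands against 7458 by counts and 18556 by folds. For Ctsk the measured 697 stands against 984 and 2156. Postn and the 8 genes named with it reached 0.62 to 0.88 of the level expected by counts and 0.19 to 0.47 of that expected by folds, where the shortfall against folds follows from how they were chosen. When limma was fitted to values on the linear scale, each divided by the gene's mean, 1 gene passed for departure, Eno2, and the adjusted p of those 9 ran from 0.266 to 0.731. In units of each gene's mean, the median departure on that scale was -0.33 for the 30 fibrillar genes and 0.37 for the 26 G2/M genes.

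**Figure D5:**
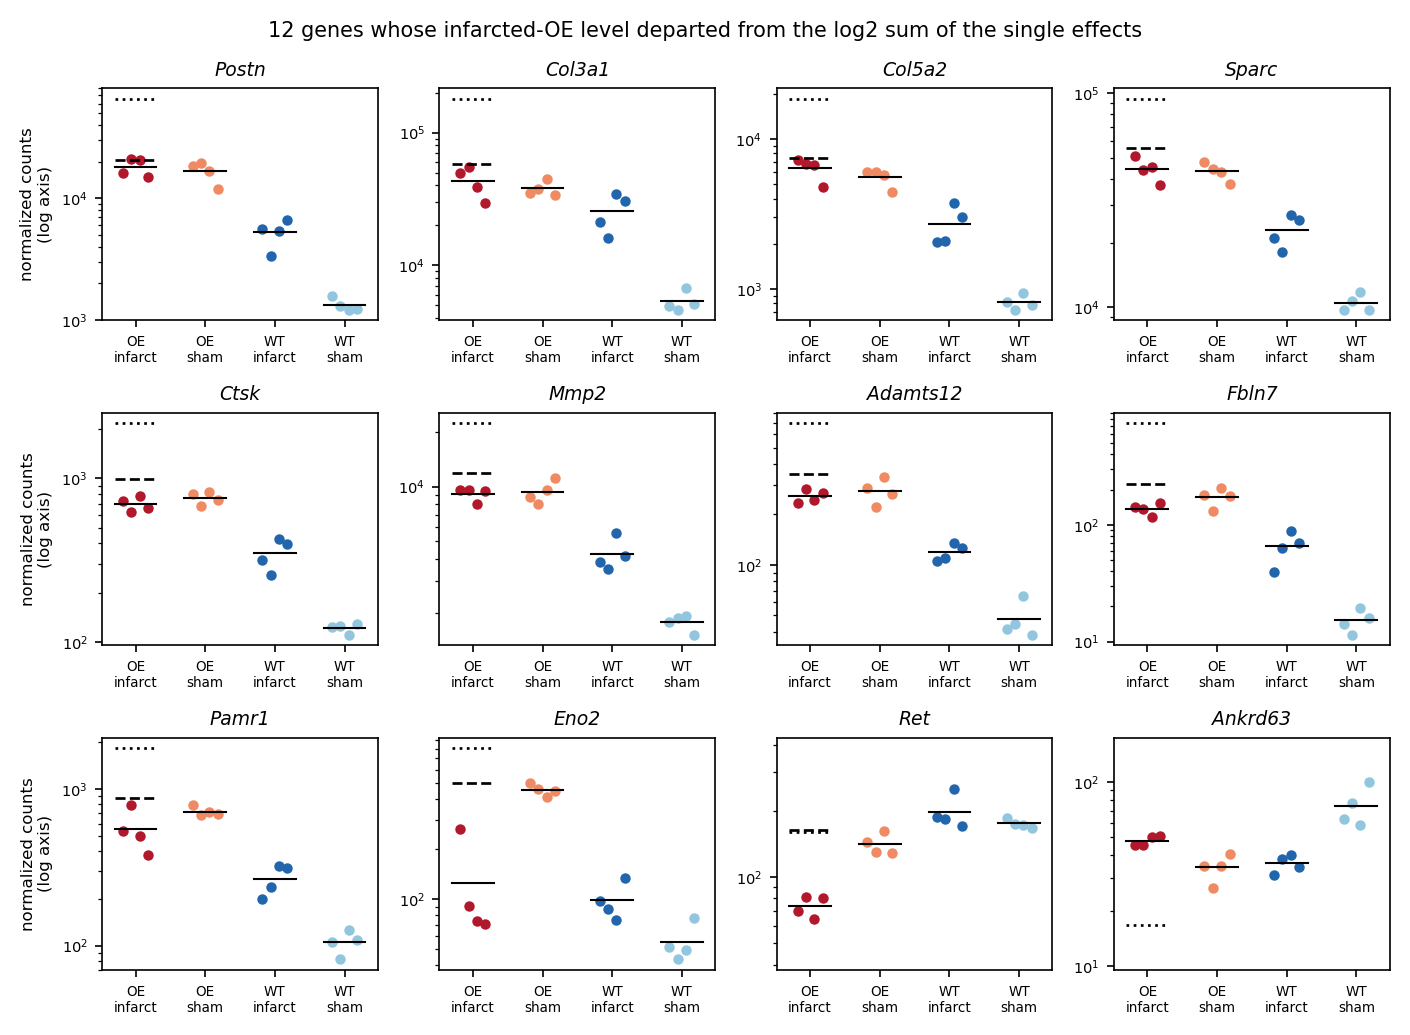
Normalized counts (log axis) of the 12 genes that passed for departure, by library, with group means as solid bars. Over the infarcted OE group the dotted line is the level expected if the single fold changes multiply and the dashed line the level expected if counts add (not drawn for Ankrd63, where it is below 0). For the first 9 genes, by their selection, the infarcted OE points lie far below the dotted line and nearer the dashed one.

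Promoters of 4 of these genes are given because the genes moved together in both OE groups and in infarcted WT hearts. Of the 12 genes, 8 had a window in the RefSeq promoter table (GRCm38.p6), which runs from 250 bases before the start of transcription to 50 bases after it. Each is written 5′ to 3′ on the gene's own strand, the plus strand for all 4, at chr3:54360857-54361156 for Postn, chr3:95498960-95499259 for Ctsk, chr1:45311288-45311587 for Col3a1 and chr2:128863682-128863981 for Fbln7. Postn had 2 windows, and the one printed has 4 annotated transcript starts within 50 bases of its start. That window lies inside the Postn span given above, not at its first base. Capitals mark matches to GGAATG or its reverse complement CATTCC, the core of sites for TEAD, the DNA-binding partner of YAP, and to TATAAA, searched on the gene's strand only.
Postn: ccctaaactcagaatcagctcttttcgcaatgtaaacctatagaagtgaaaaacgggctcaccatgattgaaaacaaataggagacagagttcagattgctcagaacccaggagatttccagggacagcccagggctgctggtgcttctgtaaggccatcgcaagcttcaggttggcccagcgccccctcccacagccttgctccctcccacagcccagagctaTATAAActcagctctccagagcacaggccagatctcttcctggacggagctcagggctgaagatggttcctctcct
Ctsk: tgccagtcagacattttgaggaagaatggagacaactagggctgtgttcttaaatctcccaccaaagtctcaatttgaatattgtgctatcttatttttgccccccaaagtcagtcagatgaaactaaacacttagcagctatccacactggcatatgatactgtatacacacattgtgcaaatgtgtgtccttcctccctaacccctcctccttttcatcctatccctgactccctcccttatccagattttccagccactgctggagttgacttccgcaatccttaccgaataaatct
Col3a1: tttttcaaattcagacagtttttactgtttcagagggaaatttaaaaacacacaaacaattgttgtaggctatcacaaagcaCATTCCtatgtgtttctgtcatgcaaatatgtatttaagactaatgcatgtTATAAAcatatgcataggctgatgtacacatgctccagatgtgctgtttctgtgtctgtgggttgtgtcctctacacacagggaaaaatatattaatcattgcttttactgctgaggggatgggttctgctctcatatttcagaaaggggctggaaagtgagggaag
Fbln7: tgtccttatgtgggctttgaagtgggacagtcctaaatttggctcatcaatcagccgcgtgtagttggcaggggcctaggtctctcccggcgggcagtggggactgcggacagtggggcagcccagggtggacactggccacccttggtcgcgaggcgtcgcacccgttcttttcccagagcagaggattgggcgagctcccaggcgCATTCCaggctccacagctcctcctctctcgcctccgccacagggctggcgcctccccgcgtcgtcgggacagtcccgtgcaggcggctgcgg

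The Postn window holds TATAAA at base -26 before the start chosen for it. Those of Col3a1 and Fbln7 each hold CATTCC, at bases -168 and -43, and that of Col3a1 also TATAAA at -117. The Ctsk window has none of these letters, and none of the 4 windows has TGAGTCA or TGACTCA, the site of the immediate-early factor AP-1. Of 32851 windows in the table, 14.7% hold a TEAD core, 5.2% an AP-1 site and 8.32% TATAAA. These matches are descriptions of the sequence and no binding was measured.

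The other 3 genes that passed were Eno2, Ret and Ankrd63. Eno2, the neuronal form of enolase, had 265, 90.4, 74.1 and 70.5 normalized counts in infarcted OE hearts and 498, 458, 411 and 448 in OE sham hearts. Infarcted OE heart 1 lay above the other 3 and below every OE sham heart. Infarcted WT hearts had 97.6, 86.6, 75 and 134 and WT sham hearts 51.7, 43.4, 49.4 and 77 (departure -2.90, 95% interval -3.88 to -1.92, adjusted p 0.023). Ret, the receptor kinase for GDNF family ligands, had 70.2, 81.1, 64.8 and 80.2 in infarcted OE hearts and 144, 129.99, 163 and 128 in OE sham hearts. Infarcted WT hearts had 187, 183, 251 and 171 and WT sham hearts 186, 175, 172 and 168. ERBB2 alone lowered Ret by 0.32 on the log2 scale (adjusted p 0.0465), and the infarct alone changed it by 0.16 (adjusted p 0.441). Infarcted OE hearts were below all 3 other groups, with no overlap (log2 fold change -1.24 against WT sham, -0.92 against OE sham and -1.40 against infarcted WT). Ret alone passed as lower in all 3 of these comparisons (0.00699% of genes tested), and no gene passed as higher in all 3. At an unadjusted limma p below 0.05 in each comparison 241 genes were lower and 92 higher in all 3, and DESeq2 called 6 as lower and 14 as higher. Ankrd63, an ankyrin repeat gene, was lower with each factor, by 1.08 for ERBB2 and by 0.998 for the infarct, and 0.60 lower with both (departure 1.48, 95% interval 0.95 to 2.01, adjusted p 0.029), at 48 ± 3.02 in infarcted OE hearts and 74.5 ± 18.3 in WT sham hearts.

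The count of 12 departures moves with single libraries. Without infarcted OE heart 1 it was 21, without heart 3 it was 3, and without heart 2 or 4 it was 15 or 9. Without 1 OE sham heart it was 1, 4, 1 and 19 for hearts 1 to 4. Without 1 infarcted WT heart it was 36, 52, 3 and 5, and without 1 WT sham heart 5, 2, 20 and 2. Ctsk passed in all 16 of these fits and Fbln7 in 14, the other 10 genes in 5 to 11, and each of the 12 kept its direction in all 16. With marker terms no gene passed, and with Hopx and Lyz1 left out of the lung sum 7 did, Ctsk alone among the reported 12. DESeq2 called 149, among them all 12. Without the libraries with Sftpc 2 genes passed, Ctsk among them, and without those with Rag1 31, of which 12 were below the sum and only Ctsk and Eno2 were among the reported 12.

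The infarct step can be read in WT and in OE hearts from libraries that are not shared. The 709 genes (4.96% of those tested) that rose with the infarct in WT hearts had a median change of 0.16 between infarcted OE and OE sham hearts, against 0.81 in the WT hearts that chose them, where selection inflates the value. Of these, 580 (81.8%) were higher in infarcted OE hearts, 128 at an unadjusted limma p below 0.05, and none passed after adjustment. The 299 genes that fell in WT hearts had a median of -0.09 in OE hearts, and 249 of them were lower. Over all 14298 genes 64.2% had the same sign in both. In OE hearts the infarct effect passed in 1 gene, Ret (0.00699%), by limma, with 1448 at an unadjusted p below 0.05, 78 by DESeq2 and 2 by voom. The 95% interval of that effect lay within 2-fold for 12180 genes (85.2%), and its median half-width was 0.28.

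The ERBB2 step was read in the same way, and among infarcted hearts it passed in 4554 genes (31.9%). The 3554 genes higher in OE sham than in WT sham hearts had a median difference of 0.37 between infarcted OE and infarcted WT hearts, and 3460 of them (97.4%) were higher there, 1996 past the threshold. Of the 3497 lower genes, 3425 (97.9%) were lower in infarcted OE hearts and 2169 passed as lower. Over all 14298 genes 84.6% had the same sign in both. For fibrillar matrix genes the median ERBB2 effect was 1.09 among infarcted hearts and 2.78 among sham hearts, and for oxidative phosphorylation -0.79 and -0.84.

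In a few genes the single effects had opposite signs, and 4 of these were named for the size of the smaller one. Lcn2, the iron-scavenging protein lipocalin-2, was 1.20 lower with ERBB2 and 1.56 higher with the infarct on the log2 scale. With both it had 110.4, 133, 149 and 91.6 normalized counts in infarcted OE hearts, against 56.8, 71.5, 96.5 and 153 in WT sham hearts. These groups overlapped and the gene did not pass (log2 fold change 0.43, adjusted p 0.318). Pkhd1l1, a gene of a large membrane receptor-like protein, changed by -0.79 and 1.06 with the single factors and by 0.02 with both. Subunit genes of PI 3-kinase went the other way. Pik3r3, a regulatory subunit, changed by 0.46 with ERBB2, -0.39 with the infarct and 0.22 with both (adjusted p 0.111). Pik3cb, a catalytic subunit, changed by 0.29, -0.38 and -0.03 (adjusted p 0.805). The genes were chosen because both single effects passed, but leaving out single libraries lost the infarct call in 12 of 16 fits for Pik3r3 (adjusted p up to 0.138), 10 for Pkhd1l1 (up to 0.127), 3 for Pik3cb (up to 0.0706) and 1 for Lcn2 (up to 0.0611).

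Markers of other tissues bear on these counts. With marker terms the combined effect passed in 1515 genes, and in 1044 when Hopx and Lyz1, which the heart and its macrophages express themselves, were left out of the lung sum. With that shorter sum no list had more calls in either direction than with the full marker terms. Without the 5 libraries with Sftpc, 6360 genes passed, and without the 3 with Rag1 3074. Among the thymocyte markers 7 of 8 tested rose (median 2.77), Lck, a T cell kinase, by 3.31. Of 13 lung markers 4 rose, Ager, a receptor of alveolar cells, by 3.68, and Hopx fell to 1055 ± 213 in infarcted OE hearts, against 3648 ± 569.7 in WT sham hearts. The thymocyte sums were 193 to 2566 in infarcted OE hearts and 98.4 to 137 in WT sham hearts. The lung sums without Hopx and Lyz1 were 36.1 to 7717 and 23 to 198 in these groups. Without the libraries with Rag1, the adjusted p was above 0.05 for Ankrd1, Myh7, Sprr1a, Ereg, Mmp15, Cenpf, Tnni1, Serpinh1, Cd14, Plvap, Kdr and Lck, and for Myh7 and Ankrd63 also without those with Sftpc. No adipocyte (11 tested) or skeletal muscle (10 tested) marker passed. Whether these tissues were carried over at dissection or cells of these types entered the heart was not tested.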

How the data were processed

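RNA from 16 hearts was sequenced, 4 animals in each of 4 groups, so replicates are separate animals. Per the labels and the series' design text, 60 bp single reads from polyA RNA were trimmed with cutadapt (reads under 40 bases discarded), sub-sampled at random to an equal number in each library, aligned to mm10 with TopHat2 2.0.10, counted over RefSeq genes with HTSeq and compared with DESeq2 1.6.3. The strand setting of the counting was not given in the sources used here, so reads of overlapping or antisense genes cannot be told apart. The deposited values are a signal of normalized counts, in which the authors divided each gene's count by a size factor. Whole reads were recovered from them (100% of positive values within 0.001 of a whole number). They served the totals of reads counted over genes, the shares of the most abundant genes, the other scalings, edgeR, DESeq2 and voom. No per-sample column was left unused, and the authors' own comparison columns were not used here.

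Values were taken as log2(value + 1) and fitted with limma 3.58.1 (R 4.3.3) with a trended variance and 1 mean per group over all 16 libraries. Adjusted p-values are Benjamini-Hochberg over 14298 genes, with 95% intervals from the same fit. The named genes are a panel of known markers and the 8 largest combined rises and falls (mean of at least 100, groups not overlapping). They also hold the 6 largest departures each way that passed and 4 genes with opposite single effects. From each list come up to 4 members with the smallest adjusted p and, for some lists, 1 in the rarer direction. The remaining departure genes, the tissue markers and a few further list members were named after their values were seen. The gene lists, the comparison and these rules were chosen with earlier results of these data known. The alternatives were other pseudocounts and filters, other scalings, edgeR 4.0.16, DESeq2 1.42.0, voom, a linear scale, a replicate block, terms for lung and thymus markers, and fits without single libraries. The model was tested on simulated data.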

Additional observations from a re-analysis of the deposited data

Results flagged for a closer look

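Of 240 groups of 4 libraries (120 genes in infarcted OE and in WT sham hearts), 18 held 1 library far from the others of its group, and chance alone gives about 1 in 20. In infarcted OE heart 2, Cyr61 was lowest at 907.3 normalized counts against 2212 to 2232 in the other 3, as were Serpinh1 at 6848 and Cd14 at 159. That heart is the one without Rag1. Infarcted OE heart 3 was lowest for Mmp2 at 8039 and Cox7a1 at 2345, and heart 1 for Kdr at 2126 and Phlda1 at 1283. In heart 4, the fetal troponin gene Tnni1 was lowest at 19.38, against 56.1 to 67.2, and the immediate-early gene Egr3 was highest at 1441, against 213 to 279.

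WT sham heart 2 was highest for the cardiomyocyte and mitochondrial genes Pln at 123660, Acadvl at 22606, Etfb at 10612 and Uqcrc1 at 23245. WT sham heart 4 was lowest for Myh7 at 4259, against 12981 to 15151, for Mmp15 at 1976 and for the nucleotide reductase gene Rrm2 at 41.7. WT sham heart 1 was highest for F2rl2 at 6.457, against 0 in the other 3, and for Sprr1a at 81.35, against 5.11 to 6.89.

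The infarct effect differed between OE and WT hearts in 12 genes by the departure test of limma. The difference on the log2 scale was -2.90 for Eno2, -2.31 for Fbln7, -2.05 for Col3a1, -1.81 for Postn, -1.75 for Pamr1, -1.60 for Ctsk, -1.51 for Col5a2, -1.43 for Adamts12, -1.26 for Mmp2, -1.09 for Sparc, -1.08 for Ret and 1.48 for Ankrd63.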

How the results depend on the processing

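The combined count stayed between 6060 and 7988 under other pseudocounts, filters, scalings, edgeR, DESeq2, voom, the linear scale, the 8 libraries alone, libraries RA1 to RA12 alone and without Sftpc libraries, and between 6321 and 7280 without any 1 library. Leaving out 1 library gave 3120 to 3627 genes up, 3201 to 3653 down, 1 to 52 departures (1 to 49 below), 0 to 10 genes against OE sham, 0 to 9 above all other groups and 0 to 1 below. The exact p of Erbb2 was 0.0286 without any 1 infarcted OE heart and 0.0571 without any 1 WT sham heart.
Scaling by library totals gave 5770 up and 2218 down. For departures, for infarcted OE against OE sham hearts, and for infarcted OE above or below all other groups, the counts (12, 1, 0 and 1 as reported) changed as follows. DESeq2 called 149 departures (123 below), 78, 14 and 6. Voom called 2 genes against OE sham. The linear scale gave 1 departure (1 below), 4 genes against OE sham and 0 below all. RA1 to RA12 alone gave 0 departures (0 below), 0 against OE sham and 0 below all. The labels give RA numbers without a meaning, and all infarcted OE hearts had 12 or lower. That fit left out WT sham hearts 3 and 4, OE sham heart 4 and infarcted WT heart 4. Lung and thymocyte terms gave 1515 combined (663 up, 852 down), 0 departures (0 below), 0 against OE sham and 0 below all. Leaving Hopx and Lyz1 out of the lung sum gave 1044 (445 up, 599 down), 7 (2 below), 0 and 0. Leaving out all Sftpc libraries gave 2 departures (1 below), 39 against OE sham, 12 above all and 2 below all. Leaving out those of infarcted OE hearts alone gave 3 (3 below), 4, 4 and 0. Leaving out Rag1 libraries gave 3074 combined (1380 up, 1694 down), 31 departures, 4 against OE sham and 0 below all, and Cyr61 at -0.012 (adjusted p 0.992). These last 4 alternatives were chosen after seeing the data. The cause of these changes was not tested.

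The labels do not say that replicate numbers pair animals, and the deviations of same-numbered libraries correlated between -0.344 and 0.271, over 0.1 in 7 of 24 pairs. A replicate block gave 7022 combined, 20 departures (17 below), 0 genes against OE sham and 0 below all. With 4 hearts a group, the 95% interval of a departure reached 0.39 either side at the median gene on the log2 scale, and departures within it were not detectable. The adjusted test was stricter than this interval, and the smallest departure in size that passed it was -1.08, for Ret.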

Other observations

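Inflammatory cytokine and chemokine genes rose in 8 of 19 and fell in 1 between infarcted OE and WT sham hearts (median log2 fold change 0.65, limma), with a median departure of -0.69, and 2 rose with lung and thymocyte terms, 3 without the Rag1 libraries and 9 without the Sftpc libraries. Genes of the nuclear envelope and of its link to the cytoskeleton divided, 3 up and 3 down of 13 (median 0.05). Neutrophil markers rose in 2 of 8, epicardial and mesothelial markers in 2 of 12 and B cell markers in 1 of 6, and none of these fell. Atrial markers showed 2 up and 2 down of 11. Schwann cell and glial markers showed 1 up and 3 down of 10. Only 1 erythroid marker was tested and it did not pass. Over all tested genes 25.1% passed as higher and 25.2% as lower.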
